A study of Mus musculus with 6 samples.

Results

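The autophagy genes described here are 40 symbols of the core autophagy machinery, chosen for their role in the pathway, by a rule that uses no measured value, though with earlier results of these data known. Of these, 39 had a probeset that the platform annotation pairs with exactly 1 gene, among 19938 genes in all, and Optn, which encodes an autophagy receptor, was not analysed here. Each gene is represented by its probeset with the highest mean over the 6 arrays. All 39 genes passed the filter on dim genes, and all had means above 6.19, the 95th percentile of olfactory and vomeronasal receptor genes, which served as a guide to background. Whole-brain RNA came from male mice of the inbred C57BL/6J strain at postnatal day 7. The ethanol group was injected under the skin with 2 doses of 2.5 g/kg ethanol, as a 20% solution in 0.15 M saline, 2 h apart, and the saline group received 0.15 M saline alone. Brains were taken 4 h after the first injection. Each array held equal amounts of RNA from 3 males of different litters, so that 2 ethanol arrays (numbered 2 and 4) and 4 saline arrays (1, 3, 5 and 6) stood for 18 mice.

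Autophagy carries cytoplasm, protein aggregates and worn organelles to the lysosome inside a double-membraned vesicle, the autophagosome. A kinase complex built around ULK1 starts the process when nutrients or growth factor signals fall, a lipid kinase complex built around Beclin 1 and VPS34 marks the membrane, and conjugation enzymes attach small ubiquitin-like ATG8 proteins to it. Receptor proteins tie the cargo to the ATG8 proteins, and neurons, which do not divide, depend on this clearance for their survival.

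Levels are given as log2 intensities as deposited, and changes as log2 differences, ethanol minus saline, with the standard error (SE) or the 95% interval of a limma fit across all 14953 genes that were not dim. Precision is limited by how few arrays there were. Arrays correlated with each other at r of 0.995 to 0.999 across genes, which are not independent replicates. Brain markers were well measured, with means of 10.7 to 13.6 for 6 neuronal genes and of 8.96 to 11.7 for 6 astrocyte genes. Saline array 3 stood apart: it was the lowest of the 4 saline arrays for 51.3% of tested genes and for 26 of the 39 autophagy genes, and values without it are given beside several results below. In bulk tissue, fewer cells of a type and less RNA per cell cannot be told apart. Summed levels of 5 oligodendrocyte precursor markers ran from 3745 to 3849 on ethanol arrays and from 3923 to 4307 on saline arrays, and those of 5 pituitary markers from 226 to 456 on ethanol arrays and from 531 to 742 on saline arrays, with Prl, Pomc and Tshb dim. Among the precursor markers, Olig2 and Olig1 had log2 changes of -0.32 and -0.16, while Pdgfra, Cspg4 and Sox10 had 0.01, -0.04 and 0.03. The part of either cell type in the values below was not tested. Summed levels of the neuronal, astrocyte, myelin, microglial, endothelial and erythroid lists overlapped between the groups. Within these lists, neuronal Snap25 (log2 change -0.19) and microglial P2ry12 (-0.12) were lower on both ethanol arrays than on every saline array, and the other tested markers overlapped.

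No autophagy gene passed the limma test (0 of 39 at an adjusted p under 0.05), where 0.0803% of all tested genes passed (0.0602% higher and 0.0201% lower). An unadjusted p under 0.05 was found for 6 autophagy genes, or 15.4% of the 39, close to the 12.3% of all tested genes. They were Atg14, Wdr45, Atg10 and Atg4a on the higher side (4 of 39), where the background was 3.85%. On the lower side they were Atg3 and Becn1 (2 of 39), where it was 8.44%. The groups did not overlap, with the pair of ethanol arrays outside the range of the 4 saline arrays, for 11 of 39, or 28.2%, against 22.6% of all tested genes. Of these, 8 were higher (Ulk1, Rb1cc1, Atg14, Wipi1, Wdr45, Atg2b, Atg4a and Atg10, background 7.68%) and 3 lower (Becn1, Atg3 and Bnip3, background 14.9%).

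The autophagy genes spanned log2 changes of -0.22 to 0.29, with a median of 0.03 against -0.02 for all tested genes, and their median size without regard to sign was 0.05, against 0.06 for all tested genes. Changes lay above 0 for 26 of the 39, or 66.7%, where 41.4% of all tested genes did, but without saline array 3 for 19 of 39 (48.7%), where 34.3% did. The median change was then -0.01. For 36 of the 39 the 95% interval, taken for each gene alone, lay within 1.3-fold either way. The exceptions were Atg14 and Wipi1, whose intervals reached further up, and Atg3, whose interval reached further down.

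**Figure D1:**
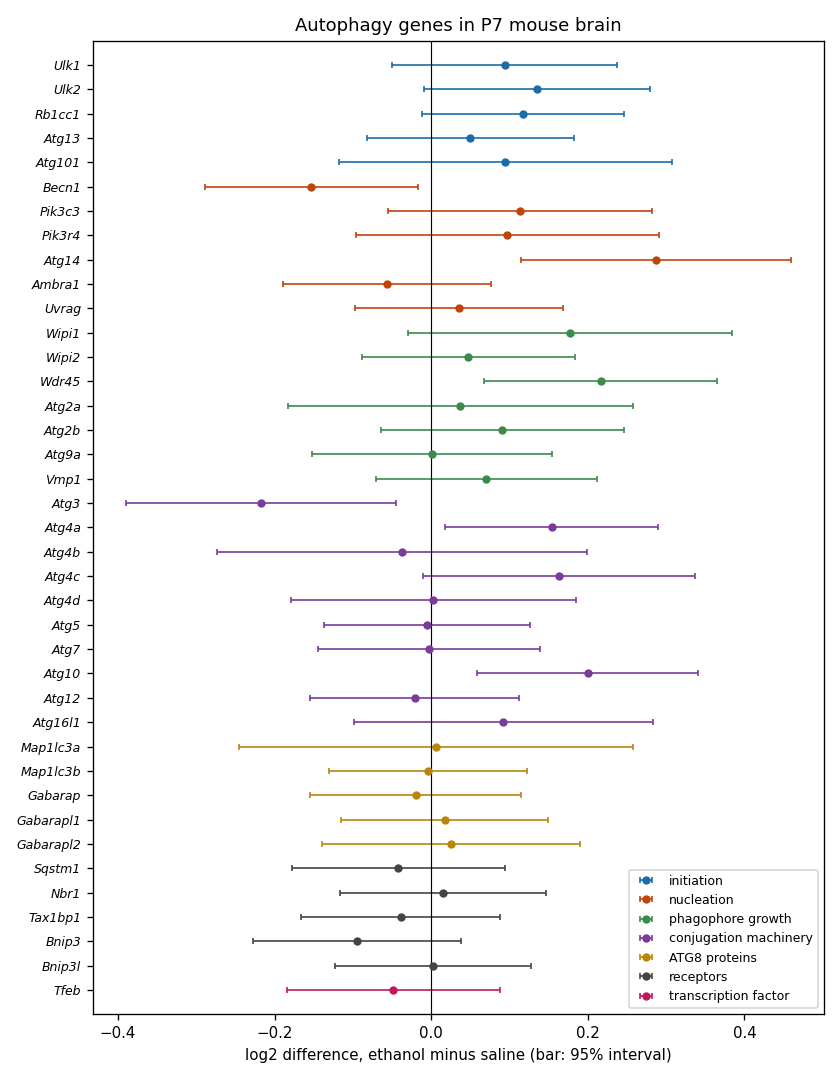
Log2 difference, ethanol minus saline, of the 39 autophagy genes, coloured by step of the pathway. Points are limma estimates over 2 ethanol and 4 saline arrays and bars are 95% intervals for each gene alone; initiation and phagophore genes lie at 0 or to the right of it (2 of the phagophore genes fall below 0 without saline array 3, and 2 without ethanol array 2), the 5 ATG8 genes lie between -0.02 and 0.03, and Atg14 (0.29) and Atg3 (-0.22) are the extremes.

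The 5 genes of the initiation complex all lay above 0, with log2 changes of 0.05 to 0.14 and none at an unadjusted p under 0.05 in limma. Ulk1 encodes the kinase that starts autophagosome formation, and its level was 9.86 and 9.88 on ethanol arrays 2 and 4, against 9.73, 9.69, 9.86 and 9.83 on saline arrays 1, 3, 5 and 6. The groups did not overlap, but ethanol array 2 and saline array 5 had nearly the same value. The log2 change of Ulk1 was 0.09 ± 0.07 (SE, limma adjusted p = 0.595). Its paralogue Ulk2 had 11.21 and 11.14 on the ethanol arrays, against 11.15, 10.97, 11.01 and 11.02 on the saline arrays. Saline array 1 lay between the ethanol arrays, and the log2 change was 0.14 ± 0.07 (limma adjusted p = 0.434). Rb1cc1 encodes FIP200, the scaffold that binds ULK1, and had 9.79 and 9.82 on the ethanol arrays, against 9.67, 9.63, 9.72 and 9.73 on the saline arrays. Its values did not overlap between the groups, and its log2 change was 0.12 ± 0.06 (limma adjusted p = 0.450). Atg13 and Atg101, which encode the subunits that bridge kinase and scaffold, overlapped between the groups. Atg101 varied most among the saline arrays, from 7.51 to 7.89. All 5 initiation genes lay above 0 also without saline array 3, with changes from 0.03 upward.

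Genes of the nucleation complex, which makes the lipid PI3P on the growing membrane, went both ways. Atg14 encodes the subunit that directs VPS34 to autophagosome formation, and it had the largest change and the smallest p among the autophagy genes. Its level was 8.49 and 8.47 on ethanol arrays 2 and 4, against 8.27, 8.002, 8.21 and 8.29 on saline arrays 1, 3, 5 and 6. Both ethanol arrays lay clear of every saline array, and saline array 3 was the lowest. This was a difference of 22.0%, or 0.29 ± 0.08 on the log2 scale (95% interval 0.11 to 0.46, limma adjusted p = 0.193), and 0.22 without saline array 3. Becn1 encodes Beclin 1, the scaffold of the same complex, and had 8.97 and 9.10 on the ethanol arrays, against 9.14, 9.20, 9.21 and 9.21 on the saline arrays. Here both ethanol arrays were the lowest, and they lay further apart (0.14) than the whole range of the saline arrays (0.07). The log2 difference was -0.15 ± 0.06 for Becn1 (95% interval -0.29 to -0.02, limma adjusted p = 0.348). It ran from -0.22 without ethanol array 4 to -0.09 without ethanol array 2.

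The catalytic subunit gene Pik3c3, which encodes VPS34, had 8.27 and 8.51 on the ethanol arrays and 8.25, 8.25, 8.39 and 8.22 on the saline arrays. Ethanol array 4 was the highest and ethanol array 2 lay within the saline values. Pik3r4, which encodes the regulatory subunit VPS15, Ambra1, whose product binds Beclin 1, and Uvrag, whose product replaces ATG14 in an endosomal form of the complex, overlapped between the groups. Their changes lay between -0.06 and 0.10.

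**Figure D2:**
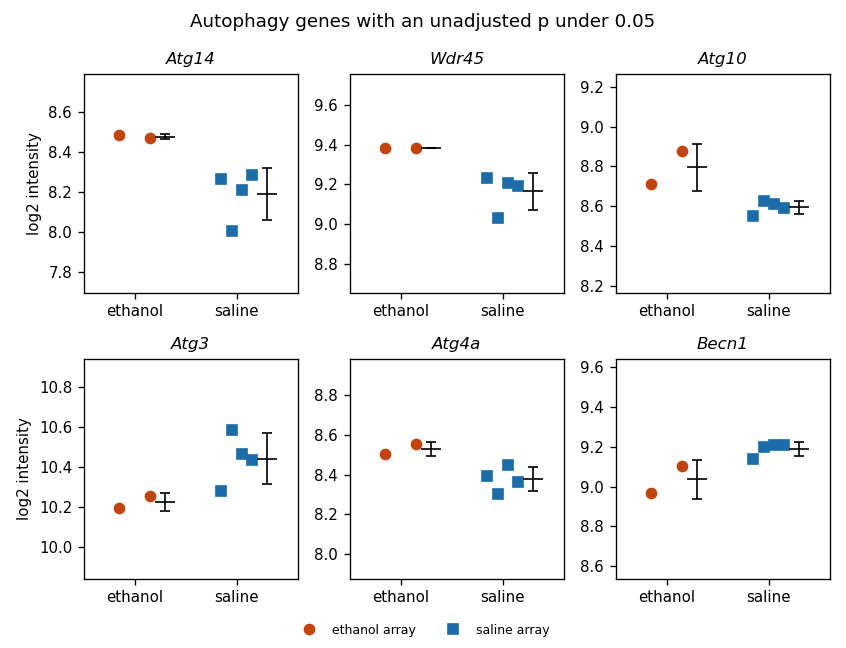
Log2 intensity of the 6 autophagy genes with an unadjusted p under 0.05 on each array, ordered by p. Circles are the 2 ethanol arrays, squares the 4 saline arrays, and black bars the group mean ± SD; every panel spans the same range of log2 units, the groups do not overlap in any of the 6, and Atg3 and Becn1 are the genes with ethanol below saline.

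The promoter windows of the genes that led each direction, Atg14 and Atg3, are shown because members of this pathway are known targets of TFEB, which binds a form of the CACGTG box, and of FoxO factors, which bind GTAAACA. Sequences are the 250 bases before the annotated start, from RefSeq (GRCm38.p6), with CACGTG in capitals. The Atg14 window is chr14:47568435-47568684 on the minus strand, and the Atg3 window is chr16:45158579-45158828 on the plus strand.
Atg14: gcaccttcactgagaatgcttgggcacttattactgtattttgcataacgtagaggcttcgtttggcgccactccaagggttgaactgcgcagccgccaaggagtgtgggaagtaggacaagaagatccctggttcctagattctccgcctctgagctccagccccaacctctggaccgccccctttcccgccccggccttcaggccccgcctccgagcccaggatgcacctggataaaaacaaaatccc
Atg3: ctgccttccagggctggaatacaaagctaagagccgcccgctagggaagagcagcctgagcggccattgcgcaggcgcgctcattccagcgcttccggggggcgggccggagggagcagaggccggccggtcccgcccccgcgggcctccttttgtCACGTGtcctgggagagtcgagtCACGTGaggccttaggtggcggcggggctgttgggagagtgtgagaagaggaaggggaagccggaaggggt

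Atg3, on the lower side, holds CACGTG at 2 places, 88 and 65 bases before its start, and Atg14, on the higher side, does not hold it within the bases shown. Over the table's whole windows, which also take in the first bases after the start, CACGTG, the same on both strands, was in those of Atg14, Atg3, Atg5, Atg7 and Bnip3. These were 5 of the 32 measured autophagy genes with a window (15.6%), and 8.09% of all 27025 genes with a window held it. The FoxO box GTAAACA, searched on both strands, was in 0 of 32 and in 4.05% of the 27025. The 27025 were not limited to measured genes, as the 32 were, so these shares come from unlike sets of genes. The 5 genes with CACGTG lay on both sides of 0, with Atg14 at 0.29, Atg3 at -0.22 and Bnip3 at -0.09, and Atg5 and Atg7 within 0.01 of 0. A match is only a run of letters in this window.

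All 7 genes that act in the growth of the phagophore, the cup-shaped membrane that closes into an autophagosome, lay at or above 0, though without saline array 3, without ethanol array 2 or with array weights, 5 of them lay above 0 and 2 below. Wdr45 encodes WIPI4, a PI3P-binding protein whose loss causes a childhood neurodegenerative disease in humans. Its level was 9.38 on both ethanol arrays, against 9.23, 9.03, 9.21 and 9.19 on saline arrays 1, 3, 5 and 6. The ethanol arrays lay above all saline arrays and differed by far less from each other than the saline arrays did. The log2 change was 0.22 ± 0.07 (95% interval 0.07 to 0.37, limma adjusted p = 0.238), or 16.2%, and 0.17 without saline array 3. Wipi1, for a related PI3P-binding protein, had 7.78 and 7.68 on the ethanol arrays, against 7.60, 7.30, 7.64 and 7.68 on the saline arrays. Ethanol array 4 and saline array 6 were almost equal, and the log2 change of 0.18 ± 0.10 (limma adjusted p = 0.486) was 0.09 without saline array 3. Atg2b, for a lipid transfer protein, had 9.35 and 9.36 on the ethanol arrays, against 9.33, 9.11, 9.29 and 9.31 on the saline arrays. Its groups were apart by a narrow margin, and its log2 change was 0.09 ± 0.07 (limma adjusted p = 0.636), and 0.04 without saline array 3. The paralogue Atg2a, the lipid scramblase gene Atg9a, the PI3P effector gene Wipi2 and the membrane protein gene Vmp1 overlapped between the groups, with changes of 0.00 to 0.07.

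The conjugation machinery, with 10 genes, divided evenly around 0 (5 above and 5 below, and 4 above without saline array 3). Atg10 encodes the enzyme that joins ATG12 to ATG5, and had 8.71 and 8.88 on ethanol arrays 2 and 4, against 8.55, 8.63, 8.61 and 8.59 on saline arrays 1, 3, 5 and 6. Both ethanol arrays were highest, and they differed by 0.17, more than the whole saline range of 0.08. The log2 change of Atg10 was 0.20 ± 0.07 (95% interval 0.06 to 0.34, limma adjusted p = 0.248), with 0.11 when ethanol array 4 was left out and 0.28 when ethanol array 2 was left out. Atg3 encodes the analogous enzyme that transfers ATG8 proteins to lipid. Its level was 10.19 and 10.26 on the ethanol arrays, against 10.28, 10.59, 10.46 and 10.44 on the saline arrays. The ethanol arrays were lowest, with saline array 1 only just above them and saline array 3 the highest. The log2 change of Atg3 was -0.22 ± 0.08 (95% interval -0.39 to -0.05, limma adjusted p = 0.293), a difference of -14.0%, and -0.17 without saline array 3.

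Among the ATG4 proteases, which trim and recycle ATG8 proteins, Atg4a had 8.50 and 8.55 on the ethanol arrays, against 8.39, 8.30, 8.45 and 8.36 on the saline arrays. Its groups did not overlap, and its log2 change was 0.15 ± 0.06 (limma adjusted p = 0.344). Atg4c had 9.29 and 9.23 on the ethanol arrays, against 9.29, 9.04, 9.03 and 9.03 on the saline arrays, so that 1 saline array lay with the ethanol arrays and 3 lay below. Atg4b had the widest spread within the ethanol group, at 8.38 and 8.10, inside the saline range of 8.02 to 8.44. Atg4d overlapped between the groups. Atg5, Atg12 and Atg16l1, whose products form the complex that directs lipidation, and Atg7, which encodes the activating enzyme shared by both conjugation pathways, also overlapped. The changes of Atg5, Atg7 and Atg12 lay between -0.02 and 0.00, and their 95% intervals between -0.15 and 0.14.

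The 5 ATG8 genes, whose products coat the autophagosome, differed least between the groups, with log2 changes from -0.02 to 0.03. Map1lc3b encodes LC3B, the usual protein marker of autophagosomes. It had 11.38 on both ethanol arrays, against 11.35, 11.36, 11.39 and 11.43 on saline arrays 1, 3, 5 and 6. The ethanol values lay in the middle of the saline values, and the 95% interval of the ratio of ethanol to saline was 0.914 to 1.09. Map1lc3a, for the related LC3A, had 10.12 and 10.02 on the ethanol arrays and 10.26, 9.74, 10.05 and 10.19 on the saline arrays. Its saline range of 0.52 was the widest of the 39 genes and came from saline array 3, and its interval, 0.843 to 1.20, was the widest of the 5. Gabarap, Gabarapl1 and Gabarapl2, of the GABARAP branch, had 95% intervals of 0.898 to 1.08, 0.924 to 1.11 and 0.908 to 1.14. Gabarap had 12.92 and 12.96 on the ethanol arrays and 12.98, 12.88, 12.97 and 13.02 on the saline arrays. Gabarapl2 had 11.95 and 11.94 on the ethanol arrays and 12.05, 11.76, 11.94 and 11.92 on the saline arrays. Gabarapl1 had 12.16 and 12.10 on the ethanol arrays and 12.12, 12.04, 12.14 and 12.14 on the saline arrays. In all 3, saline array 3 was the lowest and the groups overlapped. The log2 difference was -0.02 ± 0.06 for Gabarap (limma adjusted p = 0.934) and 0.03 ± 0.08 for Gabarapl2 (adjusted p = 0.931), and without saline array 3 it was -0.05 and -0.03. All 5 ATG8 genes lay below 0 without that array, between -0.10 and -0.01. These intervals limit the differences in transcript level only, since lipidation of the proteins was not measured here.

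**Figure D3:**
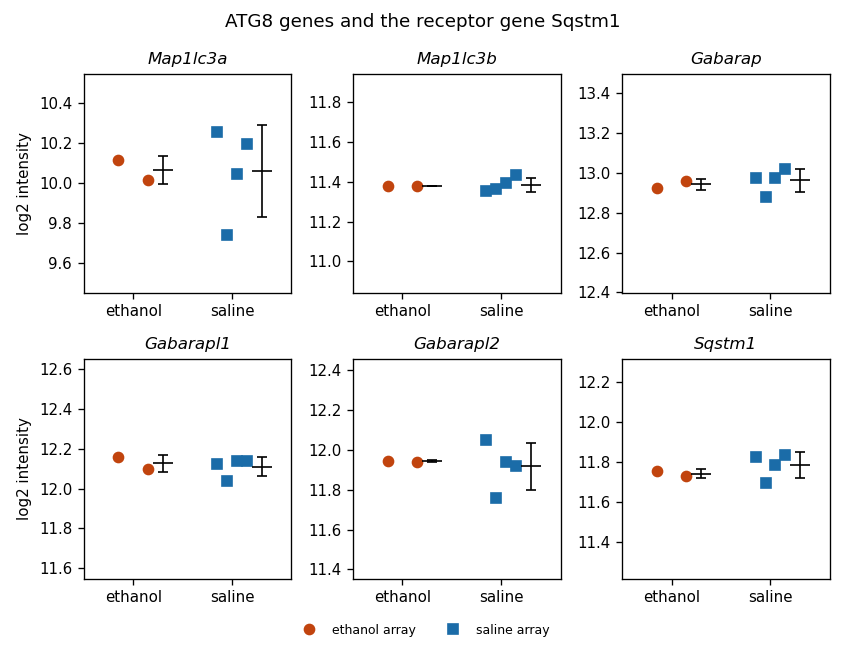
Log2 intensity of the 5 ATG8 genes and of the receptor gene Sqstm1 on each array. Circles are the 2 ethanol arrays, squares the 4 saline arrays, and black bars the group mean ± SD; the panels span the same range of log2 units, the groups overlap in all 6, and Map1lc3a has the widest saline spread, with saline array 3 lowest at 9.74.

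Of the receptor genes, Sqstm1 encodes p62, which binds ubiquitinated cargo and is itself degraded by autophagy. It had 11.76 and 11.73 on the ethanol arrays and 11.82, 11.69, 11.78 and 11.84 on the saline arrays. The groups overlapped only through saline array 3, and the log2 change was -0.04 ± 0.06 (95% interval -0.18 to 0.09, limma adjusted p = 0.836). Without saline array 3 both ethanol arrays were the lowest and the change was -0.07. Bnip3, for a mitochondrial receptor induced by low oxygen, had 10.73 and 10.74 on ethanol arrays, against 10.78, 10.90, 10.84 and 10.78 on saline arrays. Both ethanol arrays were lowest, and the log2 change was -0.09 ± 0.06 (limma adjusted p = 0.562). Its relative Bnip3l (NIX) and the ubiquitin-binding receptor genes Nbr1 and Tax1bp1 overlapped between the groups, with changes from -0.04 to 0.01. Tfeb, the transcription factor of lysosome and autophagy genes, had 7.19 on both ethanol arrays and 7.17, 7.25, 7.32 and 7.20 on the saline arrays. Its groups overlapped, and its log2 change was -0.05 ± 0.06 (limma adjusted p = 0.804).

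**Figure D4:**
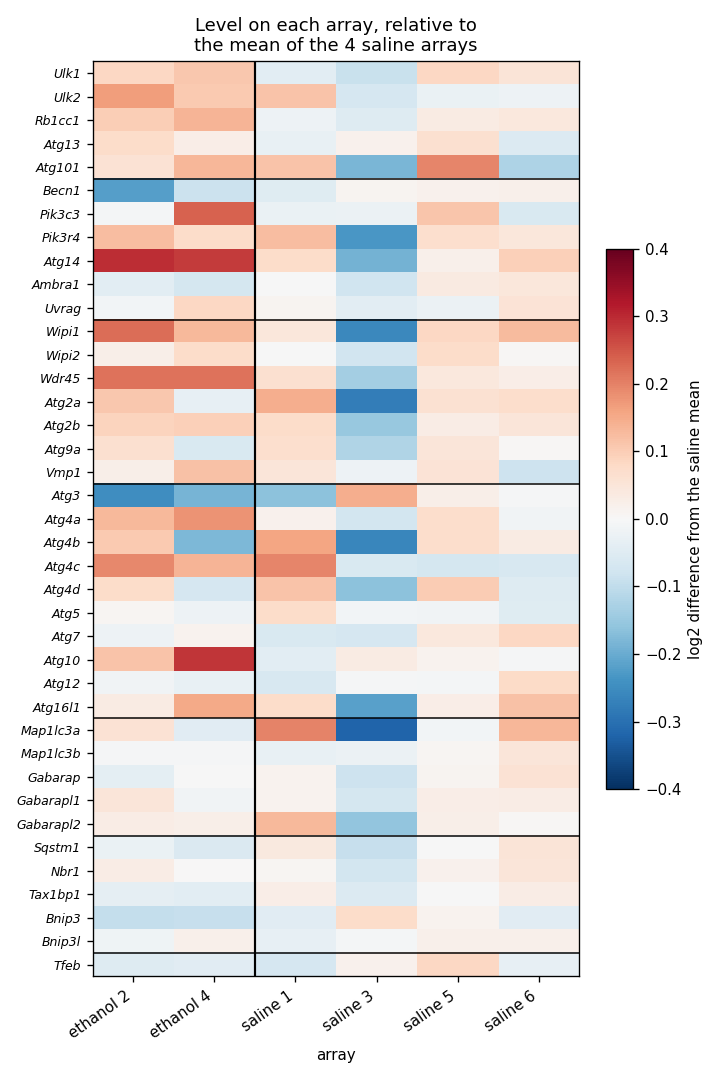
Level of the 39 autophagy genes (rows, grouped by step with black lines) on each array (columns, ethanol left of the vertical line), as the log2 difference from the mean of the 4 saline arrays. Red is above and blue below the saline mean; the column of saline array 3 is the lowest saline value in 26 of 39 rows, and the Atg14 row is red on both ethanol arrays, with a mean difference of 0.29.

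By array, the median autophagy gene lay 0.03 and 0.02 above its saline mean on ethanol arrays 2 and 4. On saline arrays 1, 3, 5 and 6 it lay at 0.02, -0.07, 0.03 and 0.03, so that saline arrays 1, 5 and 6 lay near the ethanol arrays and saline array 3 was lower. Over all tested genes the same medians were -0.02 and -0.01 on the ethanol arrays and 0.00, -0.04, 0.03 and 0.02 on the saline arrays. The mean of the 5 initiation genes was 9.89 on both ethanol arrays, against 9.82, 9.72, 9.86 and 9.77 on the saline arrays. The mean of the 5 ATG8 genes was 11.70 and 11.68 on the ethanol arrays, inside the saline range of 11.56 to 11.75.

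The annotation named a further probeset for 6 of the 39 genes. For Atg4a, Gabarapl2, Bnip3 and Bnip3l, the probeset used here stood among probesets of another chromosome than the gene's own: of the 20 nearest named probesets by number, 0 lay on the chromosome of the gene. Such a probeset may read a near-identical copy, so these 4 genes are uncertain. The further probeset of each lay among neighbours of its own chromosome. For Atg4a it gave a log2 change of 0.12 ± 0.07 (limma unadjusted p = 0.107), with 8.01 and 8.12 on ethanol arrays 2 and 4 and 7.89 to 8.05 on the saline arrays. Atg4a thus overlapped between the groups there and was not below an unadjusted p of 0.05. For Bnip3 it gave -0.06 ± 0.07, with 9.68 and 9.90 on ethanol arrays 2 and 4 and 9.77 to 9.90 on the saline arrays, so that Bnip3 also overlapped there. The further probesets of Gabarapl2 and Bnip3l gave 0.03 ± 0.10 and 0.05 ± 0.06, and those of Atg2b and Map1lc3b gave 0.07 ± 0.08 and 0.00 ± 0.06. That of Atg2b had 9.25 and 9.16 on ethanol arrays 2 and 4 and 8.96 to 9.21 on the saline arrays. The groups of Atg2b thus overlapped there too. That of Gabarapl2 was much dimmer than the one used, with a mean of 6.85 against 11.9. For Map1lc3b it was the further probeset that had 0 of 20 neighbours on the chromosome of the gene. The 33 genes with 1 probeset all lay among neighbours of their own chromosome.

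Wider lists of the pathway were read from the same fit. The first list was mainly of kinase and mTORC1 regulators upstream of ULK1, but also held Bcl2, Bcl2l1, Trp53inp1 and Trp53inp2. Of its 31 tested genes, 1 passed the limma test, and 9 (29.0%) were below an unadjusted p of 0.05, 6 higher and 3 lower. Over all tested genes 0.0803% passed and 12.3% were below that p, 3.85% higher and 8.44% lower. The 9 included Trp53inp1 (higher) and Bcl2 (lower), and the median change of the 31 genes was 0.00. Pik3ip1, whose product inhibits PI3-kinase, rose: it had 8.08 and 7.84 on ethanol arrays 2 and 4, against 7.32, 7.36, 7.57 and 7.44 on saline arrays 1, 3, 5 and 6. The groups were well apart, and the log2 change was 0.54 ± 0.08 (limma adjusted p = 0.0435), with adjusted p of 0.0154 to 0.348 over 15 alternatives, 8 of which ended the call. Leaving out ethanol array 2 or 4, or saline array 1, 3 or 6, each ended it (limma adjusted p of 0.197, 0.112, 0.0648, 0.0953 and 0.0564).

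Sesn1, for a sestrin that restrains mTORC1, had 10.36 and 10.33 on ethanol arrays, against 9.93, 9.89, 10.07 and 10.00 on saline arrays. Its groups did not overlap, and its log2 change of 0.37 ± 0.07 did not pass (limma adjusted p = 0.0630). It passed in 4 of 15 alternatives, over which its adjusted p ran from 0.0154 to 0.388. Trp53inp1, whose product binds ATG8 proteins, had 9.72 and 9.48 on ethanol arrays, against 9.27, 9.15, 9.30 and 9.33 on saline arrays (log2 change 0.34 ± 0.08, limma adjusted p = 0.115), and its change was 0.22 without ethanol array 2. Ddit4, for REDD1, which acts through the TSC complex to restrain mTORC1, had 8.99 and 8.91 on ethanol arrays, against 8.69, 8.55, 8.65 and 8.80 on saline arrays (log2 change 0.28 ± 0.07, limma adjusted p = 0.165). In each of the 3, both ethanol arrays lay above all saline arrays. Bcl2, whose product binds Beclin 1 and was picked for that after its values were seen, had 9.93 and 10.01 on ethanol arrays, against 10.19, 10.27, 10.14 and 10.18 on saline arrays (log2 change -0.23 ± 0.06, limma adjusted p = 0.193).

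Of 16 tested transcriptional regulators of autophagy genes, 0 passed in limma and 3 (18.8%) were below an unadjusted p of 0.05, 2 higher and 1 lower, with a median change of 0.04. Foxo3, a FoxO factor that turns on autophagy genes in mouse muscle, had 8.72 and 8.86 on ethanol arrays, against 8.44, 8.20, 8.40 and 8.45 on saline arrays. Both ethanol arrays lay clear above, and the log2 difference of 0.42 ± 0.08 did not pass (limma adjusted p = 0.0723). It passed in 3 of 15 alternatives, over which its adjusted p ran from 0.0422 to 0.456. Of 9 autophagy genes known as FoxO3 targets in muscle (Map1lc3b, Gabarapl1, Bnip3, Bnip3l, Atg12, Atg4b, Ulk2, Becn1 and Pik3c3), 4 lay above 0 and 5 below, with a median of 0.00, and 1, Becn1, was below 0.05 in unadjusted p. Of 4 known as TFEB targets in cell lines (Sqstm1, Map1lc3b, Uvrag and Wipi1), 2 lay above 0 and 2 below, with a median of 0.02. The log2 difference was 0.20 ± 0.06 for Stat3, a cytokine-activated factor (limma adjusted p = 0.241), and -0.14 ± 0.06 for Atf4, the factor of the integrated stress response (0.366).

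**Figure D5:**
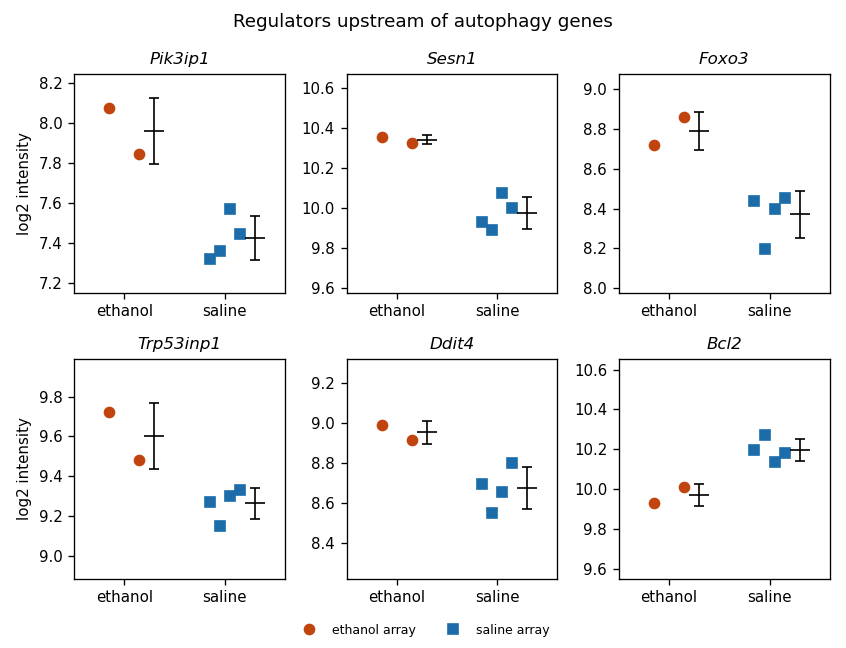
Log2 intensity of 6 genes of the wider pathway lists on each array. Circles are the 2 ethanol arrays, squares the 4 saline arrays, and black bars the group mean ± SD; the panels span the same range of log2 units, the groups do not overlap in any of the 6, ethanol is above saline in all but Bcl2, and Pik3ip1 passed the limma test over all 6 arrays, which Sesn1 and Foxo3 passed only in 4 and 3 of 15 alternatives.

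The remaining pathway lists held no gene that passed. Among 18 tested further receptors and adaptors of selective autophagy, 2 (11.1%) were below an unadjusted p of 0.05 in limma, both lower. Nufip1, whose product binds ribosomes for autophagy, had 9.75 and 9.82 on ethanol arrays, against 9.97, 10.01, 10.01 and 9.96 on saline arrays (log2 change -0.20 ± 0.06, limma adjusted p = 0.194). Tbk1, for the kinase that activates receptors such as p62, had -0.14 ± 0.06 (limma adjusted p = 0.401). Of 16 tested genes of autophagosome-lysosome fusion, 1 (6.25%) had such a p, Vamp8, for a fusion SNARE, at 0.15 ± 0.06 (limma adjusted p = 0.353). Of 17 other core autophagy genes, 0 passed in limma and 0 reached an unadjusted p under 0.05, with changes of -0.14 to 0.11.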

How the data were processed

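The authors deposited 1 log2 value per probeset and array for 35556 probesets. The log2 scale was inferred from the values' range (4.10 to 14.9). The submitters' processing notes name Partek 6.6; how background, normalization and summarisation were handled is not given in the sources used here. Probesets of exactly 1 gene (21789) were kept, with symbols updated through gene records (21698 matched), and the dimmest 25% of genes were left out. limma 3.58.1 in R 4.3.3 (lmFit, eBayes) was fitted to 14953 genes over all 6 arrays with treatment as the only term, two-sided, with Benjamini-Hochberg adjustment over all genes and a threshold of 0.05. The fit had 4 residual and 8.1 prior degrees of freedom, and was tested on simulated data. Replicates are pools of separate mice. The groups have no replicate numbers in common, so littermates could not be paired.

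Members and lists were chosen with earlier results of these data known. Array values are given for members with an unadjusted p under 0.05, members whose groups did not overlap and the 2 of smallest p in each step, with others added for context. From each wider list, up to 4 genes with an unadjusted p under 0.05 are named, and Bcl2 was added after its values were seen. Alternatives covered the filter, the probeset, scaling, array weights, the variance prior and each array left out. Counts at an unadjusted p and of groups without overlap were added to these after the data were seen. Gene coordinates are not given, since no source used here names the array's build.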

Additional observations from a re-analysis of the deposited data

Results flagged for a closer look

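Among the 39 autophagy genes, 3 had a saline array far from the other 3, where chance alone flags about 5% of groups of 4. Becn1 had 9.14 on saline array 1, below the other saline arrays, and its ethanol arrays lay at 8.97 and 9.10. Without that array the log2 change of Becn1 was -0.17. Atg4c had 9.29 on saline array 1, above the other saline arrays and level with ethanol array 2. Without that array the groups of Atg4c did not overlap, and its unadjusted p was below 0.05 in limma. Gabarapl1 had 12.04 on saline array 3, below the other saline arrays and both ethanol arrays. The cause was not tested.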

How the results depend on the processing

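No autophagy gene passed in the main setting or in any of 15 alternatives, and the lowest limma adjusted p was 0.111. At an unadjusted p under 0.05 in limma the count was 6, between 5 and 9 in the other processing alternatives and 5 to 8 with 1 saline array left out. Counts at that p without ethanol array 2 or 4 are not given, since only 1 ethanol array then remains. The main share was 15.4%, against 12.3% of all tested genes. Among the processing alternatives the share was lowest with the mean of the probesets, at 12.8% against 12.3%. It was also 12.8% without saline array 5 or 6, against 9.6% and 10.8%. Without saline array 1 it was 20.5% against 12.9%. Under centring and under quantile normalization it was 23.1%, against 12.6% and 13.7%. In both, 7 of the 9 genes were higher and 2 lower, where all tested genes had 843 higher and 1038 lower, and 1030 and 1019. Groups without overlap numbered 9 to 13, and 11 to 16 with 1 array left out, where the share of all tested genes was also higher: 48.4% and 46.3% without ethanol array 2 or 4 (autophagy genes 41.0% and 38.5%), and 31.3% and 31.9% without saline array 1 or 3 (41.0% and 38.5%). The median change was 0.03, between 0.00 and 0.04 in the processing alternatives and -0.01 to 0.04 with 1 array left out. Of 239 values of 16 named autophagy genes, 237 kept their direction and their side of the threshold. The exceptions were Gabarapl2 at -0.0057 with array weights and -0.027 without saline array 3, its range with 1 array left out being -0.027 to 0.069. Direction could not change where only the filter or the variance prior differed, since the log2 change is the same there. This also held for every probeset fitted on its own, and for the mean of the probesets in genes with 1 probeset. For the 11 named genes whose groups did not overlap, leaving out 1 array could not change the direction or make the groups overlap. Over all genes 12 passed, against 52 with the dimmest 50% left out, 56 with array weights, 48 with a trended robust prior and 0 with no variance prior in limma (1535 at an unadjusted p under 0.05), and 4 to 16 with 1 array left out. Sesn1 passed with the dimmest 50% left out, quantile normalization, array weights and a trended robust prior, and Foxo3 in the same settings except quantile normalization. The cause was not tested. No paired analysis was possible because the groups share no replicate number.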
